A study of Mus musculus with 30 samples.

Results

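The 10 genes at the centre of NF-kappa B signalling were followed in 4T1 cells, a mouse mammary carcinoma line. Members were taken by symbol, with earlier results of these data known. These were the 5 subunits Rela, Rel, Relb, Nfkb1 and Nfkb2, the IkappaB inhibitors Nfkbia, Nfkbib and Nfkbie, and the feedback genes Tnfaip3 and Traf1. They make 10 of the 39253 genes in the count table, and all 10 were among the 13008 genes with enough reads to be tested. All cells grew in medium with vesicle-depleted serum and received small extracellular vesicles (sEVs), membrane particles shed by cells, from primary Ly6G+ neutrophils of WT BALB/c female mice. The neutrophils had been kept for 48 h in 10 µM 27HC (27-hydroxycholesterol, an oxysterol made from cholesterol) or in DMSO, the vehicle. Under 27HC-sEVs some 4T1 cells detached, so a non-adherent and an adherent fraction were collected, and under DMSO-sEVs adherent cells. Groups were non-adherent 27HC-sEV cells (5 libraries at 48 h and 4 at 72 h), adherent 27HC-sEV cells (5 at each time) and DMSO-sEV cells (5 at each time). There is no group without vesicles and no non-adherent group under DMSO-sEVs, and 4T1 is 1 line.

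NF-kappa B is a family of dimeric transcription factors that act in inflammation, survival and the response to stress. IkappaB proteins hold the dimers in the cytoplasm until IkappaB kinases mark them for breakdown, after which the dimers enter the nucleus and switch on targets that include genes of their own inhibitors. Many carcinomas use the pathway, and 4T1 tumours secrete cytokines and chemokines that it controls.

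The promoters of 3 members are shown because they carry the kappa B consensus, the sequence bound by NF-kappa B dimers, just upstream of genes that moved in opposite directions. Each is the 250 bases before the RefSeq start (GRCm38.p6), written 5′ to 3′ on the strand of the gene, with the matched bases in capitals. Nfkbia lies at chr12:55492648-55492897 on the minus strand, Rel at chr11:23770970-23771219 on the minus strand and Nfkbie at chr17:45555450-45555699 on the plus strand.
Nfkbia: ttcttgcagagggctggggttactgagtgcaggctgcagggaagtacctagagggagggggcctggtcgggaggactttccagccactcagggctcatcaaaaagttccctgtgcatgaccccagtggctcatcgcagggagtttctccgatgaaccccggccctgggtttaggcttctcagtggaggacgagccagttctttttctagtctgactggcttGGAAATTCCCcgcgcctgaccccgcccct
Rel: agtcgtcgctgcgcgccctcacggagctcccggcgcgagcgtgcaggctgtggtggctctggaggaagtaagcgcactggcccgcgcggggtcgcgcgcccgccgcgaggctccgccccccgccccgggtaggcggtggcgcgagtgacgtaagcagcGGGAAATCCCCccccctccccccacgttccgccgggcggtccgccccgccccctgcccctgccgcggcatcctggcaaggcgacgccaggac
Nfkbie: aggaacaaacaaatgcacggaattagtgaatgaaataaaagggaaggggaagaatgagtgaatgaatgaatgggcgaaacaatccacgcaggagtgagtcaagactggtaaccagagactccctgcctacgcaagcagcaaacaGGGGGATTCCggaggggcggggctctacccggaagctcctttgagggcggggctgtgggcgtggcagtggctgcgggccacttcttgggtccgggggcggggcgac
The capitals begin 29 bases before the start of Nfkbia, 92 bases before that of Rel and 106 bases before that of Nfkbie. The consensus was searched on both strands, and overlapping matches were merged. Of the 8 members with a promoter in the RefSeq table, 5 held it (Nfkbia, Rel, Nfkbie, Nfkb2 and Tnfaip3), and Rela, Traf1 and Nfkbib did not. Among all tested genes with a promoter there, 1078 of 10200 (10.6%) held it. A match describes the letters of the window only.

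Total estimated counts ran from 18.8 to 31.4 M per library. Values below are CPM, read counts scaled to library size with TMM factors. Replicates 4 and 5 of the DMSO-sEV cells stood apart from replicates 1 to 3. At 72 h they were higher in Rela, Rel, Relb, Nfkb1, Nfkb2, Nfkbie, Tnfaip3 and Traf1, in Nfkbie by a small margin. Epithelial markers matched the 4T1 label: all 6 of a list with Epcam and Krt8 were tested, at summed levels of 2200 to 2360 CPM in non-adherent cells, 2480 to 2800 CPM in adherent cells and 3300 to 4220 CPM in DMSO-sEV cells at 72 h. At 48 h these sums were 2860 to 3080, 2970 to 3490 and 3730 to 4640 CPM. Of 13 neutrophil markers 1 was tested, 5 were at 0 in every library (Ly6g, Mpo, Elane, Csf3r and Mmp8), and the sum stayed at or under 1.99 CPM. Of 9 macrophage markers, Adgre1, C1qa and C1qb were at 0 in every library and 3 were tested. Their sum, mostly Cd68, was 9.40 to 10.7 CPM in non-adherent cells, 10.3 to 13.3 CPM in adherent cells and 1.93 to 4.28 CPM in DMSO-sEV cells at 72 h, and 5.33 to 7.47, 6.33 to 9.25 and 2.76 to 3.90 CPM at 48 h. Of 5 fibroblast markers 3 were tested, and the sum, mostly Pdgfra, was 22.4 to 31.1, 18.8 to 23.3 and 6.09 to 7.11 CPM at 72 h and 23.1 to 33.3, 13.1 to 19.0 and 9.81 to 13.1 CPM at 48 h, in the same order of groups. No gene of 6 lymphocyte and 4 endothelial markers was tested, with sums up to 0.297 and 0.488 CPM. The part of these differences in the results below was not tested. In bulk samples a smaller share of cells of one kind and less RNA per cell cannot be told apart.

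The inhibitor gene Nfkbia and the adaptor gene Traf1 had the largest rises of the 10 over DMSO-sEV cells at 48 h, and Rel, a subunit known mainly from lymphocytes, fell. A member counts as changed where its edgeR quasi-likelihood test passed an adjusted p of 0.05. In adherent 27HC-sEV cells against DMSO-sEV cells at 48 h, 5 of 10 members rose and 1 fell, where 21.3% of all tested genes rose and 22.7% fell. At 72 h 6 rose and 2 fell, against 32% and 33.4% of all genes. The median log2 fold change of the 10 was 0.23 at 48 h and 0.27 at 72 h, beside -0.0015 and 0.0015 over all tested genes. In non-adherent against adherent 27HC-sEV cells, 4 rose and 1 fell at 48 h, against 25.7% and 28.4% of all genes. At 72 h 4 rose and 0 fell, against 14.7% and 12.8%, and the medians of the 10 were 0.12 and 0.21, beside 0.0039 and 0.0025 over all genes. That 72 h count depended on which libraries shared the fit, reaching 7 in a fit of only the groups compared, as Rela, Nfkb2 and Nfkbie then passed too. It reached 8, with Rel, in a fit with a replicate block or with either set of DMSO-sEV replicates left out. The share of all genes called higher grew in these fits as well, to 22.4% with only the groups compared, 21.3% with the block and 21.7% and 22.1% with DMSO-sEV replicates 1 to 3 or 4 and 5 alone. In non-adherent cells against DMSO-sEV cells, 7 rose and 1 fell at 48 h, against 33.2% and 33.4% of all genes, and 7 rose and 3 fell at 72 h, against 38.3% and 36.2%. That comparison and the one of adherent with DMSO-sEV cells share the DMSO-sEV libraries, so their values are set side by side and not added up. Groups without overlap between libraries were common among all tested genes. In adherent over DMSO-sEV cells 14.9% were wholly higher and 15.6% wholly lower at 48 h, and 21.7% each way at 72 h. In non-adherent over adherent cells these shares were 19.1% and 23.2% at 48 h and 18% and 16.3% at 72 h. In non-adherent over DMSO-sEV cells they were 25.1% and 26.9% at 48 h and 31.8% and 29.3% at 72 h.

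**Figure D1:**
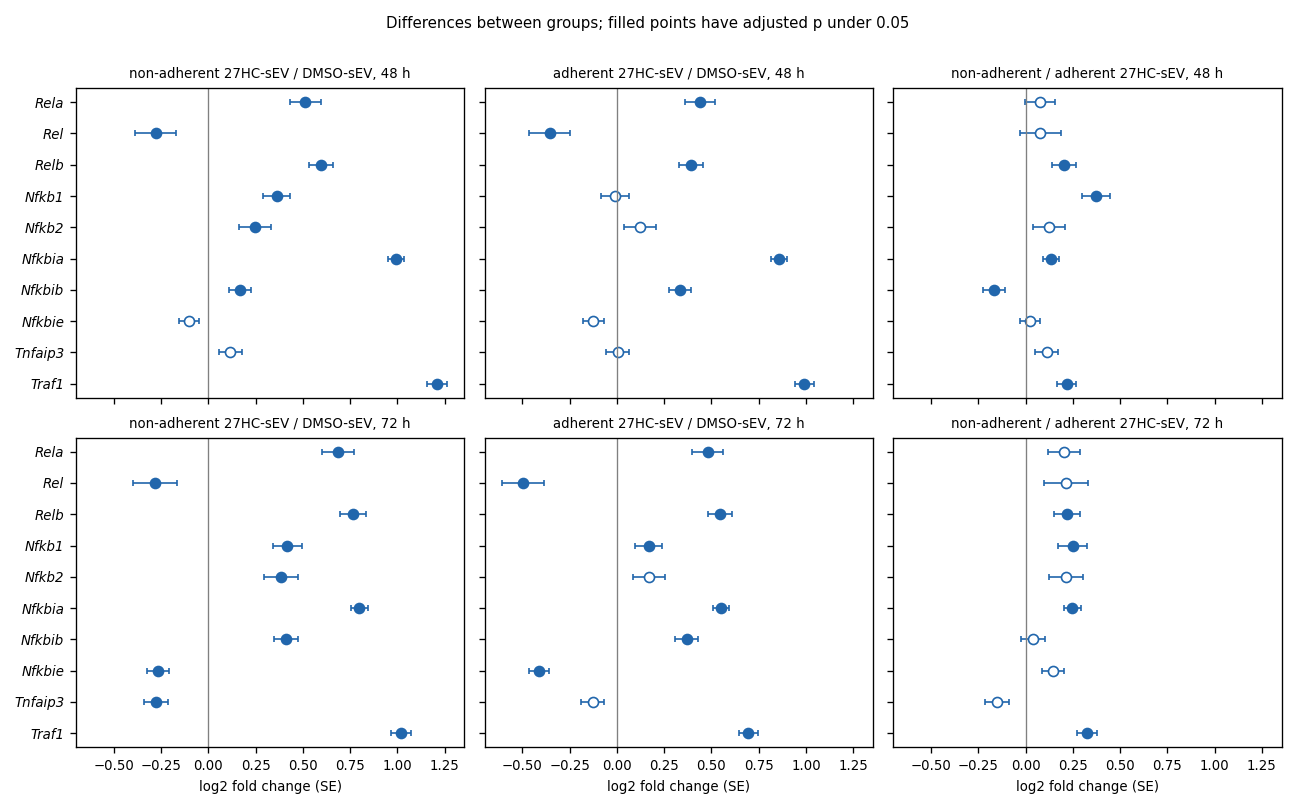
Log2 fold changes (points, bars are SE) of the 10 members, in rows, for each pair of groups at 48 and 72 h, and filled points passed an adjusted p of 0.05. Traf1 and Nfkbia lie furthest right against DMSO-sEV cells at 48 h (0.99 and 0.86 in adherent cells), and Rel lies left of 0 there (-0.35).

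Rela encodes the subunit that carries the transactivating domain of the classical dimer. At 48 h its libraries read 145, 139, 134, 149.8 and 138 CPM in non-adherent cells, 149, 121, 129, 132 and 138 CPM in adherent cells and 94.3, 91.7, 93.6, 107 and 107 CPM in DMSO-sEV cells. Every 27HC-sEV library lay above every DMSO-sEV library, while the adherent and non-adherent ranges overlapped. The log2 fold change of adherent over DMSO-sEV cells was 0.44 (SE 0.08, adjusted p = 4.99e-05), and that of non-adherent over adherent cells, 0.07 (SE 0.08, adjusted p = 0.443), did not pass. At 72 h Rela was at 141, 139, 139.9 and 149 CPM in non-adherent cells, 135, 117, 126, 123 and 115 CPM in adherent cells and 74.8, 76.0, 81.1, 106 and 104 CPM in DMSO-sEV cells. All 3 groups were apart in that order, with DMSO-sEV replicates 4 and 5 well above the other 3 of their group. Adherent over DMSO-sEV cells gave 0.48 (SE 0.08, adjusted p = 7.96e-06), with 0.67 (adjusted p = 4.04e-11) against DMSO-sEV replicates 1 to 3 alone and 0.25 (adjusted p = 0.00179) against replicates 4 and 5 alone. It was 0.24 (adjusted p = 0.00275) with length and GC offsets, a fit that removes from each library its trend of counts with transcript length and GC content. Non-adherent over adherent cells gave 0.20 (SE 0.084, adjusted p = 0.0671). It passed without any 1 of DMSO-sEV 72 h replicates 1, 2, 4 and 5 and adherent 72 h replicate 1 (log2 fold change 0.20 to 0.24, adjusted p = 0.0392 to 0.0499), and with DMSO-sEV replicates 1 to 3 or 4 and 5 alone (adjusted p = 0.00193 and 0.00213). Over all alternatives it ran from 0.099 to 0.24, with adjusted p up to 0.31. Non-adherent over DMSO-sEV cells came to 0.51 (SE 0.08, adjusted p = 2.71e-06) at 48 h and 0.68 (SE 0.085, adjusted p = 4.16e-08) at 72 h. The 72 h value was 0.34 with the offsets and 0.45 with DMSO-sEV replicates 4 and 5 alone.

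Rel, which encodes the c-Rel subunit, went the other way. Its 48 h libraries read 27.3, 24.5, 26.0, 24.0 and 29.0 CPM in non-adherent cells, 24.2, 24.0, 24.2, 24.0 and 27.5 CPM in adherent cells and 28.6, 27.3, 29.0, 34.3 and 39.7 CPM in DMSO-sEV cells. DMSO-sEV replicates 4 and 5 were the highest, and some 27HC-sEV libraries reached into the range of the other 3. Rel fell in adherent cells by 0.35 on the log2 scale (SE 0.11, adjusted p = 0.00866). At 72 h it was at 23.4, 23.5, 18.4 and 24.1 CPM in non-adherent cells, 19.4, 18.3, 19.6, 17.1 and 22.2 CPM in adherent cells and 23.7, 22.2, 24.4, 34.0 and 31.3 CPM in DMSO-sEV cells. The adherent libraries all lay below the DMSO-sEV libraries, the highest of them only just, at -0.50 (SE 0.11, adjusted p = 0.000294) in log2. It was -0.19 (adjusted p = 0.0478) at 48 h and -0.28 (adjusted p = 0.00413) at 72 h with DMSO-sEV replicates 1 to 3 alone, and -0.56 and -0.75 with replicates 4 and 5 alone. The fall in non-adherent against DMSO-sEV cells, -0.28 (SE 0.11, adjusted p = 0.0255) at 48 h and -0.28 (SE 0.12, adjusted p = 0.0312) at 72 h, was lost in several alternatives. With DMSO-sEV replicates 1 to 3 alone it was -0.11 (adjusted p = 0.203) at 48 h and -0.067 (adjusted p = 0.492) at 72 h, and with replicates 4 and 5 alone -0.47 and -0.53. With length and GC offsets it was -0.43 and -0.44, and with only the groups compared the 72 h call was lost, -0.28 (adjusted p = 0.125). At 48 h the call also ended without any 1 of DMSO-sEV 48 h replicates 4 and 5 and non-adherent 48 h replicates 2 and 4 (log2 fold change -0.25 to -0.19, adjusted p = 0.058 to 0.121). The 72 h call ended without any 1 of DMSO-sEV 72 h replicates 4 and 5 and non-adherent 72 h replicate 3 (log2 fold change -0.24 to -0.19, adjusted p = 0.0812 to 0.141). Rel did not pass between non-adherent and adherent cells at either time, with 0.08 (SE 0.11, adjusted p = 0.566) at 48 h and 0.21 (SE 0.12, adjusted p = 0.163) at 72 h. The 72 h value passed with a replicate block, 0.27 (adjusted p = 0.0261), and with DMSO-sEV replicates 1 to 3 alone or 4 and 5 alone, 0.21 (adjusted p = 0.026) and 0.21 (adjusted p = 0.0383).

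Relb, the subunit that pairs with the Nfkb2 product in the alternative pathway, was ordered alike at both times. Its level at 48 h was 43.7, 43.2, 43.7, 46.6 and 45.3 CPM in non-adherent cells, 40.5, 39.7, 36.2, 37.4 and 39.1 CPM in adherent cells and 28.3, 28.1, 29.3, 31.4 and 30.0 CPM in DMSO-sEV cells. At 72 h the values were 41.4, 40.9, 41.1 and 44.1 CPM in non-adherent cells, 35.7, 35.0, 36.8, 34.4 and 37.7 CPM in adherent cells and 22.9, 19.7, 24.5, 26.8 and 28.9 CPM in DMSO-sEV cells. No library of 1 group reached into another at either time. Relb rose in adherent over DMSO-sEV cells, 0.39 (SE 0.065, adjusted p = 1.32e-05) on the log2 scale at 48 h and 0.54 (SE 0.065, adjusted p = 3.88e-08) at 72 h, the 72 h value being 0.28 (adjusted p = 0.000101) with length and GC offsets. In non-adherent over adherent cells it rose too, 0.21 (SE 0.064, adjusted p = 0.00816) at 48 h and 0.22 (SE 0.068, adjusted p = 0.0202) at 72 h. With the offsets these were 0.013 (adjusted p = 0.865) and 0.098 (adjusted p = 0.222). The 72 h call also ended with no filter except 1 count, 0.19 (adjusted p = 0.0913), and without non-adherent 72 h replicate 4 (log2 fold change 0.19, adjusted p = 0.0677). Non-adherent over DMSO-sEV cells gave 0.60 (SE 0.064, adjusted p = 5.34e-09) at 48 h and 0.77 (SE 0.069, adjusted p = 1.1e-10) at 72 h, of which the 72 h value was 0.37 with the offsets.

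Nfkb1 encodes the precursor of the DNA-binding partner of RelA. At 48 h it was at 222, 223, 220.3, 213 and 222 CPM in non-adherent cells, 176, 162, 169.7, 164 and 179 CPM in adherent cells and 156, 166, 166, 186 and 183 CPM in DMSO-sEV cells. All non-adherent libraries lay above those of the other groups, which overlapped. It rose in non-adherent over adherent cells, 0.37 (SE 0.072, adjusted p = 0.000135) on the log2 scale, and adherent over DMSO-sEV cells gave -0.01 (SE 0.072, adjusted p = 0.923). At 72 h the libraries read 185, 184, 193 and 188 CPM in non-adherent cells, 172, 154, 152, 158 and 152 CPM in adherent cells and 124, 113, 138, 159 and 168 CPM in DMSO-sEV cells. Non-adherent cells were again apart, with 0.25 (SE 0.076, adjusted p = 0.0195) over adherent cells. That call ended with no filter except 1 count, 0.22 (adjusted p = 0.0771), and without non-adherent 72 h replicate 3 (log2 fold change 0.24, adjusted p = 0.0534). Adherent over DMSO-sEV cells passed narrowly at 72 h, 0.17 (SE 0.072, adjusted p = 0.0424). The call did not hold with no filter except 1 count, 0.18 (adjusted p = 0.0634), with only the groups compared, 0.18 (adjusted p = 0.163). It was lost without any 1 of DMSO-sEV 72 h replicates 1 and 2 and adherent 72 h replicates 1, 3 and 4 (log2 fold change 0.12 to 0.17, adjusted p = 0.0564 to 0.12). It was 0.34 (adjusted p = 1.43e-06) with DMSO-sEV replicates 1 to 3 alone and -0.033 (adjusted p = 0.573) with replicates 4 and 5 alone. Non-adherent over DMSO-sEV cells gave 0.36 (SE 0.072, adjusted p = 8.17e-05) at 48 h and 0.42 (SE 0.076, adjusted p = 1.89e-05) at 72 h, or 0.21 at 72 h with DMSO-sEV replicates 4 and 5 alone.

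Nfkb2, the precursor gene of the alternative pathway, ranged over 231 to 242 CPM in non-adherent cells, 201 to 240.4 CPM in adherent cells and 184 to 215 CPM in DMSO-sEV cells at 48 h. At 72 h it ranged over 209.7 to 220.4 CPM, 175 to 204 CPM and 129 to 201 CPM in the same order. Adherent cells overlapped DMSO-sEV cells at both times and did not pass, at 0.12 (SE 0.085, adjusted p = 0.248) at 48 h and 0.17 (SE 0.085, adjusted p = 0.0839) at 72 h. With DMSO-sEV replicates 1 to 3 alone both passed, 0.19 (adjusted p = 0.00702) and 0.38 (adjusted p = 1.6e-06). The 72 h value also passed with a replicate block, 0.18 (adjusted p = 0.0411), and without any 1 of DMSO-sEV 72 h replicates 4 and 5 (log2 fold change 0.24, adjusted p = 0.0109 to 0.0111). Non-adherent cells passed against DMSO-sEV cells, 0.25 (SE 0.085, adjusted p = 0.0123) at 48 h and 0.38 (SE 0.09, adjusted p = 0.000421) at 72 h. The 72 h value was 0.60 (adjusted p = 1.01e-09) with DMSO-sEV replicates 1 to 3 alone and 0.12 (adjusted p = 0.0777) with replicates 4 and 5 alone. The direction of Nfkb2 turned with length and GC offsets, to -0.21 (adjusted p = 0.00112) for adherent and -0.19 (adjusted p = 0.00404) for non-adherent over DMSO-sEV cells at 72 h. For non-adherent over DMSO-sEV cells at 48 h it turned to -0.064 (adjusted p = 0.286). Between the fractions it gave 0.12 (SE 0.085, adjusted p = 0.225) at 48 h. That value passed with only the groups compared, 0.13 (adjusted p = 0.0386), and turned to -0.16 (adjusted p = 0.0137) with the offsets. At 72 h it was 0.21 (SE 0.09, adjusted p = 0.0723). Over all alternatives this 72 h value ran from 0.019 to 0.25, with adjusted p up to 0.828. It passed without any 1 of DMSO-sEV 72 h replicates 2, 4 and 5 and adherent 72 h replicate 1 (log2 fold change 0.21 to 0.25, adjusted p = 0.0269 to 0.0473). With DMSO-sEV replicates 1 to 3 or 4 and 5 alone both times passed, at adjusted p = 0.0367 and 0.00938 at 48 h and 0.00208 and 0.000851 at 72 h. Exons of Nfkb2 overlap Psd (299 bases) and AC114539.1 (531 bases) on the other strand. Since strand use in counting is not given in the sources used here, its level is uncertain to that extent.

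**Figure D2:**
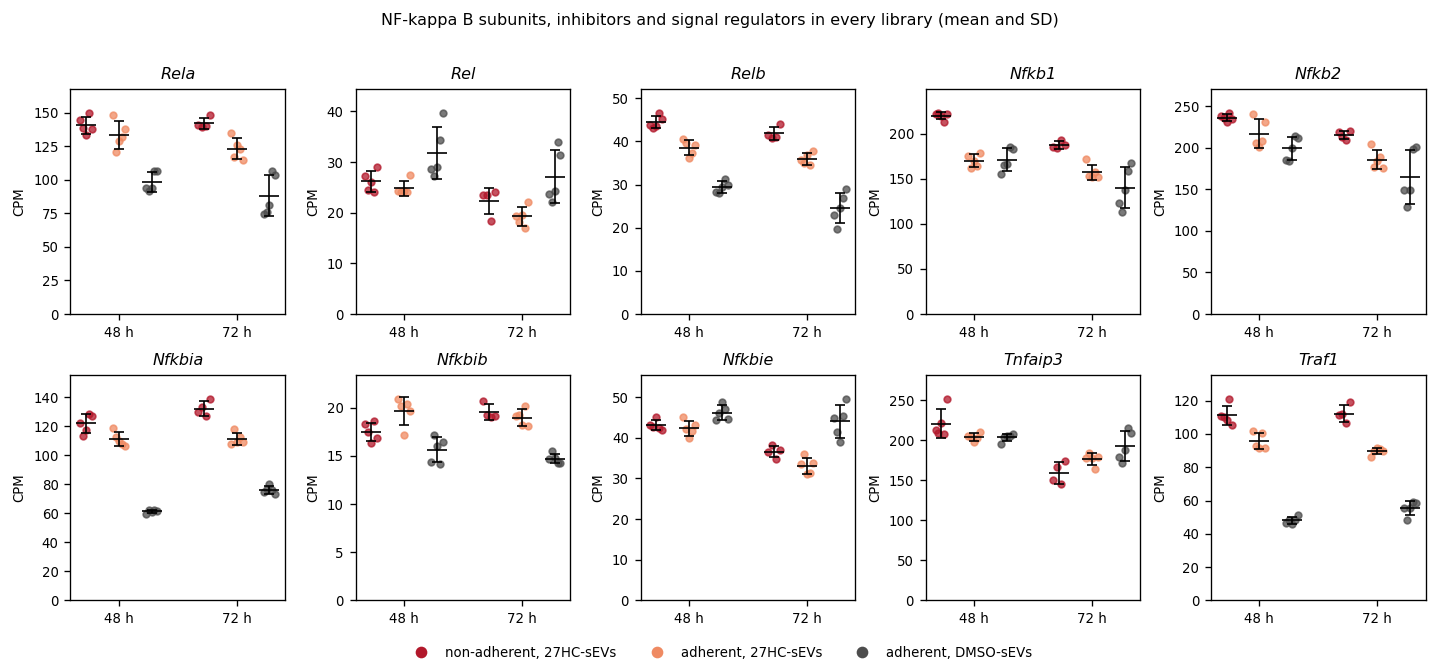
CPM of each member (1 panel a gene) in every library, with non-adherent 27HC-sEV, adherent 27HC-sEV and DMSO-sEV cells from left to right at 48 and 72 h, and bars at the group means with SD. Nfkbia and Traf1 separate both 27HC-sEV groups from DMSO-sEV cells, and DMSO-sEV replicates 4 and 5 of Rela, Rel, Nfkb1 and Nfkb2 lie above replicates 1 to 3 at 72 h.

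Nfkbia encodes the inhibitor IkappaB-alpha, whose own transcription NF-kappa B drives, and it carries the consensus in the promoter shown above. The 48 h libraries read 123, 114, 118, 129 and 127 CPM in non-adherent cells, 119, 112, 109.7, 108 and 107 CPM in adherent cells and 59.4, 62.3, 60.6, 62.5 and 61.5 CPM in DMSO-sEV cells. The 72 h libraries read 130.0, 133, 127 and 139 CPM in non-adherent cells, 108, 118, 109, 112 and 109 CPM in adherent cells and 74.5, 76.5, 79.9, 76.2 and 73.3 CPM in DMSO-sEV cells. The 27HC-sEV libraries lay far above all DMSO-sEV libraries at both times, and non-adherent cells lay above all adherent ones at 72 h but overlapped them at 48 h. Nfkbia rose 1.81-fold in adherent over DMSO-sEV cells at 48 h, or 0.86 (SE 0.042, adjusted p = 6.8e-16) in log2. At 72 h the log2 fold change was 0.55 (SE 0.042, adjusted p = 6.59e-12) and the 72 h minus 48 h difference of the 2 was -0.31 (SE 0.059, adjusted p = 0.000221). With length and GC offsets that difference was -0.13 (adjusted p = 0.299). Non-adherent over adherent cells gave 0.13 (SE 0.042, adjusted p = 0.00829) at 48 h and 0.25 (SE 0.044, adjusted p = 0.000353) at 72 h, and with the offsets 0.37 and 0.40. With no filter except 1 count the 48 h call ended (adjusted p = 0.0744). Non-adherent over DMSO-sEV cells gave 0.99 (SE 0.042, adjusted p = 1.58e-17) at 48 h and 0.80 (SE 0.044, adjusted p = 4.96e-15) at 72 h.

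Nfkbib, for IkappaB-beta, an inhibitor that is broken down more slowly, rose in adherent cells at both times. Its libraries ranged over 16.4 to 18.6 CPM in non-adherent cells, 17.2 to 20.9 CPM in adherent cells and 14.1 to 17.2 CPM in DMSO-sEV cells at 48 h. At 72 h the ranges were 19.0 to 20.7 CPM, 18.1 to 20.2 CPM and 14.3 to 15.5 CPM in that order. Adherent libraries lay above DMSO-sEV libraries at both times, at 48 h by a very small margin, giving 0.33 (SE 0.06, adjusted p = 4.12e-05) and 0.37 (SE 0.06, adjusted p = 5.35e-06). Nfkbib was lower in non-adherent than adherent cells at 48 h, -0.17 (SE 0.059, adjusted p = 0.0198), and gave 0.04 (SE 0.063, adjusted p = 0.64) at 72 h. The 48 h call ended without any 1 of adherent 48 h replicates 1 and 2 and non-adherent 48 h replicate 3 (log2 fold change -0.14, adjusted p = 0.0561 to 0.0641). Non-adherent over DMSO-sEV cells gave 0.17 (SE 0.06, adjusted p = 0.0162) at 48 h and 0.41 (SE 0.064, adjusted p = 1.81e-06) at 72 h. The 48 h call was lost with no filter except 1 count, 0.15 (adjusted p = 0.0792), with DMSO-sEV replicates 1 to 3 alone, 0.15 (adjusted p = 0.0573), and without any 1 of DMSO-sEV 48 h replicates 1 and 4 (log2 fold change 0.13 to 0.14, adjusted p = 0.0585 to 0.0597). Its exons overlap Sirt2 (42 bases) and Ccer2 (314 bases) on the other strand, so its level carries the same uncertainty as that of Nfkb2.

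Nfkbie, for IkappaB-epsilon, fell in 27HC-sEV cells at 72 h. At 48 h it was at 43.0, 42.7, 45.1, 42.4 and 42.0 CPM in non-adherent cells, 45.0, 42.1, 40.0, 41.6 and 43.1 CPM in adherent cells and 44.5, 46.0, 48.7, 47.1 and 44.7 CPM in DMSO-sEV cells. These ranges overlapped, and adherent over DMSO-sEV cells gave -0.12 (SE 0.053, adjusted p = 0.0595). It passed with DMSO-sEV replicates 1 to 3 alone, -0.13 (adjusted p = 0.0421), and without any 1 of DMSO-sEV 72 h replicate 5 and adherent 48 h replicate 1 (log2 fold change -0.15 to -0.12, adjusted p = 0.036 to 0.0393). At 72 h it was at 36.4, 38.3, 34.8 and 36.9 CPM in non-adherent cells, 33.5, 35.9, 31.0, 31.3 and 33.7 CPM in adherent cells and 44.8, 41.4, 39.0, 45.4 and 49.4 CPM in DMSO-sEV cells. Every 27HC-sEV library lay below every DMSO-sEV library. The log2 fold change of adherent over DMSO-sEV cells was -0.41 (SE 0.054, adjusted p = 1.59e-07), and the 72 h minus 48 h difference was -0.29 (SE 0.076, adjusted p = 0.0039), or -0.49 with length and GC offsets. That of non-adherent over DMSO-sEV cells was -0.27 (SE 0.057, adjusted p = 0.000153), or -0.52 with the offsets, at 72 h. Over all alternatives the 72 h falls ran from -0.60 to -0.34 in adherent and from -0.52 to -0.19 in non-adherent cells. Both passed throughout, with adjusted p up to 0.000754 and 0.0202. At 48 h non-adherent over DMSO-sEV cells gave -0.10 (SE 0.053, adjusted p = 0.0939), and -0.22 (adjusted p = 0.000559) with the offsets. Non-adherent over adherent cells gave 0.02 (SE 0.053, adjusted p = 0.74) at 48 h and 0.15 (SE 0.057, adjusted p = 0.055) at 72 h. The 72 h value passed with DESeq2, 0.14 (adjusted p = 0.0451), with a replicate block, 0.15 (adjusted p = 0.037), and with DMSO-sEV replicates 1 to 3 or 4 and 5 alone (adjusted p = 0.0211 and 0.0178). It passed as well without any 1 of DMSO-sEV 48 h replicate 2, DMSO-sEV 72 h replicates 1, 2, 3 and 5, adherent 48 h replicate 2 and adherent 72 h replicate 2 (log2 fold change 0.14 to 0.18, adjusted p = 0.0329 to 0.0478). Over all alternatives it ran from 0.079 to 0.18, with adjusted p up to 0.31.

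Tnfaip3 encodes a ubiquitin-editing enzyme that shuts off signalling upstream of the IkappaB kinases. Levels at 48 h were 213, 209, 222, 208 and 251 CPM in non-adherent cells, 206, 204, 197, 203 and 211 CPM in adherent cells and 196, 205, 205, 205 and 208 CPM in DMSO-sEV cells. Adherent and DMSO-sEV cells overlapped, at 0.0043 (SE 0.06, adjusted p = 0.964) in log2. Levels at 72 h were 150.1, 166, 146 and 175 CPM in non-adherent cells, 178, 184, 177, 165 and 179 CPM in adherent cells and 179, 171, 189, 215 and 209 CPM in DMSO-sEV cells. Non-adherent libraries were mostly the lowest, and Tnfaip3 fell in non-adherent against DMSO-sEV cells, -0.28 (SE 0.064, adjusted p = 0.000363), or -0.61 with length and GC offsets and -0.18 with DMSO-sEV replicates 1 to 3 alone. Adherent over DMSO-sEV cells at 72 h gave -0.13 (SE 0.06, adjusted p = 0.0648). It passed with the offsets, -0.35 (adjusted p = 1.64e-07), with DMSO-sEV replicates 4 and 5 alone, -0.25 (adjusted p = 0.0023), and without any 1 of DMSO-sEV 72 h replicate 2 and non-adherent 48 h replicate 5 (log2 fold change -0.15 to -0.13, adjusted p = 0.027 to 0.0467). At 48 h non-adherent over DMSO-sEV cells gave 0.12 (SE 0.06, adjusted p = 0.0904). It passed with DMSO-sEV replicates 1 to 3 alone, 0.13 (adjusted p = 0.0491), and without any 1 of DMSO-sEV 48 h replicate 2, DMSO-sEV 72 h replicates 1, 2 and 3 and adherent 48 h replicate 2 (log2 fold change 0.15, adjusted p = 0.0233 to 0.0479). It turned to -0.11 (adjusted p = 0.0494) with the offsets. Non-adherent over adherent cells gave 0.11 (SE 0.06, adjusted p = 0.117) at 48 h and -0.15 (SE 0.064, adjusted p = 0.0777) at 72 h. The 72 h call was made with the offsets, -0.26 (adjusted p = 0.000643), with only the groups compared, -0.15 (adjusted p = 0.0347), and without non-adherent 72 h replicate 4 (log2 fold change -0.20, adjusted p = 0.0469). It was made too with DMSO-sEV replicates 1 to 3 or 4 and 5 alone, -0.15 (adjusted p = 0.0237) and -0.15 (adjusted p = 0.0245), and with 4 and 5 alone the 48 h value passed, 0.13 (adjusted p = 0.0325).

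Traf1 encodes an adaptor of tumour necrosis factor receptors that is also a known NF-kappa B target. Its 48 h values were 111, 110.4, 108, 121 and 106 CPM in non-adherent cells, 102, 93.0, 91.7, 100.3 and 91.8 CPM in adherent cells and 46.5, 48.4, 46.1, 48.5 and 51.1 CPM in DMSO-sEV cells. Its 72 h values were 112, 112, 106 and 119 CPM in non-adherent cells, 86.4, 89.8, 91.4, 91.2 and 89.5 CPM in adherent cells and 55.3, 48.3, 55.6, 59.0 and 58.7 CPM in DMSO-sEV cells. At each time the 3 groups did not overlap and stood in that order, beside the shares of all genes without overlap given above. Traf1 rose 1.99-fold in adherent over DMSO-sEV cells at 48 h, or 0.99 (SE 0.051, adjusted p = 1.87e-15) in log2, and 1.62-fold at 72 h, 0.69 (SE 0.051, adjusted p = 2.54e-12). The 72 h minus 48 h difference was -0.30 (SE 0.072, adjusted p = 0.00192), or -0.50 with length and GC offsets. Non-adherent over adherent cells gave 0.22 (SE 0.05, adjusted p = 0.000702) at 48 h and 0.32 (SE 0.053, adjusted p = 0.000129) at 72 h. The 48 h value was 0.086 (adjusted p = 0.121) with the offsets. Non-adherent over DMSO-sEV cells gave 1.21 (SE 0.051, adjusted p = 1.25e-17) at 48 h and 1.02 (SE 0.053, adjusted p = 1.43e-15) at 72 h.

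Per length of the longest GENCODE M21 transcript, Nfkbia held the highest level of the 10 in 27HC-sEV cells. At 48 h it averaged 77.3 CPM per kb in non-adherent cells, 70.4 CPM per kb in adherent cells and 38.8 CPM per kb in DMSO-sEV cells, where it came after Nfkb2 (51.8) and Nfkb1 (41.3). Nfkbia overlapped Nfkb1 and Rela (36.3) in those DMSO-sEV libraries, whereas in adherent cells it was apart from Nfkb2, the next at 56.5 CPM per kb. At 72 h Nfkbia averaged 83.8, 70.6 and 48.2 CPM per kb in non-adherent, adherent and DMSO-sEV cells, and in DMSO-sEV cells it overlapped Nfkb2 (43.0). Rel was lowest in all 6 groups, from 2.58 CPM per kb in adherent cells at 72 h to 4.25 in DMSO-sEV cells at 48 h. Nfkbib was next lowest, at 7.13 to 9.54 CPM per kb, and overlapped Relb in DMSO-sEV cells at 72 h alone.

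Between 72 and 48 h most members that passed fell. In non-adherent cells 0 rose and 3 fell, against 5.7% and 6.91% of all genes. Tnfaip3 fell furthest there, -0.47 (SE 0.064, adjusted p = 9.89e-06), with no overlap between times, and Nfkbie fell too, -0.23 (SE 0.057, adjusted p = 0.00613). Of all tested genes 10.5% were lower there without overlap between times. Nfkb1 passed narrowly, -0.23 (SE 0.077, adjusted p = 0.0451), and its call did not hold throughout. It ended with RLE factors, -0.23 (adjusted p = 0.0503), with no filter except 1 count, -0.24 (adjusted p = 0.0903), and with length and GC offsets, -0.23 (adjusted p = 0.0546). It ended too without any 1 of DMSO-sEV 48 h replicate 3, adherent 48 h replicates 3 and 4, adherent 72 h replicates 2, 4 and 5, non-adherent 48 h replicates 1, 2, 3 and 5 and non-adherent 72 h replicates 1, 2, 3 and 4 (log2 fold change -0.25 to -0.22, adjusted p = 0.0507 to 0.11). In adherent cells 0 rose and 3 fell, against 6.58% and 6.54% of all genes. These were Nfkbie, -0.36 (SE 0.054, adjusted p = 2.59e-05), Rel, -0.36 (SE 0.11, adjusted p = 0.0272), and Tnfaip3, -0.21 (SE 0.06, adjusted p = 0.0188). With no filter except 1 count Rel gave -0.35 (adjusted p = 0.052) and Tnfaip3 -0.20 (adjusted p = 0.0814). The call of Rel also ended without any 1 of adherent 48 h replicate 5 and adherent 72 h replicates 2 and 4 (log2 fold change -0.34 to -0.32, adjusted p = 0.0596 to 0.0818). That of Tnfaip3 ended without adherent 72 h replicate 4 (log2 fold change -0.19, adjusted p = 0.0616). In DMSO-sEV cells 2 rose and 3 fell, against 27.8% and 23.8% of all genes. Nfkbia rose, 0.31 (SE 0.042, adjusted p = 1.15e-06), or 0.13 (adjusted p = 0.11) with length and GC offsets, and Traf1 rose, 0.20 (SE 0.051, adjusted p = 0.00162), or 0.38 with the offsets. With only the groups compared Traf1 gave 0.18 (adjusted p = 0.0632) and Nfkb2 -0.29 (adjusted p = 0.0848). Nfkb1 fell, -0.29 (SE 0.072, adjusted p = 0.0016), as did Nfkb2, -0.27 (SE 0.085, adjusted p = 0.01), and Relb, -0.26 (SE 0.066, adjusted p = 0.002). With the offsets Nfkb2 gave 0.027 (adjusted p = 0.712) and Relb -0.039 (adjusted p = 0.616), and with DMSO-sEV replicates 4 and 5 alone both calls ended, -0.082 (adjusted p = 0.42) and -0.13 (adjusted p = 0.181). Nfkb1 gave -0.17 (adjusted p = 0.0302) with those replicates alone. With DMSO-sEV replicates 1 to 3 alone Nfkb2 gave -0.42 (adjusted p = 4.97e-06), and 4 more members fell. Rela, Rel, Nfkbie and Tnfaip3 then gave -0.27 (adjusted p = 0.000604), -0.27 (adjusted p = 0.0125), -0.15 (adjusted p = 0.0345) and -0.17 (adjusted p = 0.03). In that fit 57.5% of all genes were called, against 51.6% with all DMSO-sEV libraries. Replicate numbers were taken to pair the 48 and 72 h DMSO-sEV libraries, from correlations of same-numbered libraries in these data. Differently numbered libraries were not compared, so pairing was not told apart from the split of replicates 4 and 5 from 1 to 3. With the number as a block in a fit of the DMSO-sEV libraries alone, Rela and Rel also fell, -0.20 (adjusted p = 0.0103) and -0.26 (adjusted p = 0.00452). In the fit of all groups without it they gave -0.16 (SE 0.08, adjusted p = 0.104) and -0.22 (SE 0.11, adjusted p = 0.0879). In that fit of DMSO-sEV libraries alone 5 members fell and 2 rose. Of all genes 59.3% were called there. With the block over all 6 groups Rel passed, -0.22 (adjusted p = 0.03), and Rela gave -0.16 (adjusted p = 0.056).

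**Figure D3:**
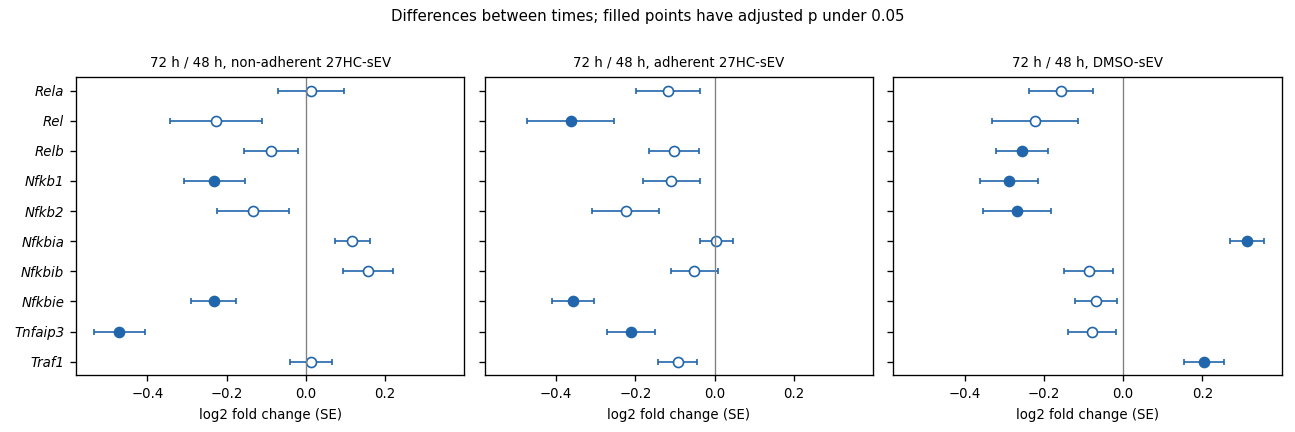
Log2 fold changes of 72 over 48 h (points, bars are SE) of the 10 members in non-adherent 27HC-sEV, adherent 27HC-sEV and DMSO-sEV cells from left to right, and filled points passed an adjusted p of 0.05. Tnfaip3 in non-adherent cells lies furthest left (-0.47), and Nfkbia in DMSO-sEV cells furthest right (0.31).

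The change with time of the adherent over DMSO-sEV difference passed for 3 members, the named Nfkbia, Traf1 and Nfkbie, where 37.3% of all genes passed. With DMSO-sEV replicates 1 to 3 alone it passed for Relb and Nfkb1 too, 0.25 (adjusted p = 0.0112) and 0.27 (adjusted p = 0.00248). For the non-adherent over adherent difference it passed for 0 of 10, where 4.6% of all genes passed, and 2 at an unadjusted p under 0.05. DESeq2 and limma-trend on the deposited values also made 0 such calls, and only the groups compared made 1, Tnfaip3, -0.28 (adjusted p = 0.0251). Tnfaip3 passed as well with DMSO-sEV replicates 1 to 3 or 4 and 5 alone, -0.26 (adjusted p = 0.0206) and -0.28 (adjusted p = 0.0175).

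Across the 29 libraries, the log2 CPM of Nfkbia and Traf1 moved most closely together of the pairs of members (Pearson r = 0.977), followed by Rela and Relb (0.952) and Nfkb1 and Nfkb2 (0.922). Rel went with Nfkbie (0.803) and Tnfaip3 (0.66) and against Nfkbia (-0.584). The points share libraries and the 6 groups, so these describe the order of groups as much as of libraries. Among tested genes that averaged 3 or more in log2 CPM, those closest to Nfkbia were Cnppd1 (r = 0.981), Pnrc1 (r = 0.979) and Calcoco1 (r = 0.978). The closest to Traf1 were Dyrk1b (r = 0.975), Klf4 (r = 0.973) and Zfp36l1 (r = 0.973), and the closest to Rela were Myo5b (r = 0.974), Smurf1 (r = 0.973) and Eif4b (r = 0.971). Those closest to Rel were Foxm1 (r = 0.93), Lrrk1 (r = 0.908) and Brca2 (r = 0.907), and those closest to Nfkbie were Nek2 (r = 0.904), Kif23 (r = 0.904) and Kif18b (r = 0.904). For Relb they were Eps8l2 (r = 0.981), Plcg2 (r = 0.977) and Klhl21 (r = 0.973), and for Nfkb1 Septin9 (r = 0.983), Dlg5 (r = 0.969) and Chd4 (r = 0.968). Nfkb2 was closest to Ap2b1 (r = 0.965), Ywhag (r = 0.962) and Flii (r = 0.962), Nfkbib to Niban1 (r = 0.894), Gsta4 (r = 0.889) and Bmf (r = 0.887) and Tnfaip3 to Iqgap3 (r = 0.847), Parp14 (r = 0.83) and Arap2 (r = 0.789).

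Around the 10 members, 143 other genes of the pathway were listed in 7 groups by role, and 124 of them were tested. Genes named here passed the test, their bracketed values are log2 fold changes, and the SE of these ran from 0.04 to 0.31, with adjusted p up to 0.047. In adherent over DMSO-sEV cells 52 rose and 24 fell at 48 h (median log2 fold change 0.10) and 55 rose and 28 fell at 72 h (0.14). That is 41.9% and 19.4% at 48 h, against 21.3% and 22.7% of all genes, and 44.4% and 22.6% at 72 h, against 32% and 33.4%. Of 16 ligand genes 8 were tested, and 5 of these rose and 0 fell at 48 h, with a median of 0.84. They included Il1a (1.15), for interleukin-1 alpha, and Tnfsf15 (1.82), a tumour necrosis factor relative, and at 72 h 6 rose and 2 fell, the falls being Il18 (-0.73) and Tnfsf10 (-1.20). Of 20 receptor genes 4 rose and 7 fell at 48 h and 9 rose and 4 fell at 72 h. Tlr4, the endotoxin receptor, rose by 0.86 and the co-stimulatory receptor Tnfrsf9 by 1.89 at 48 h, while Cd40, which signals to the alternative pathway, fell (-1.53 at 48 h and -2.77 at 72 h).

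Of 13 genes for IkappaB kinases and their activation, 6 rose and 1 fell at 48 h and 6 rose and 2 fell at 72 h. Ikbkg, the regulatory subunit NEMO, rose at both times (0.50 and 0.66), and Map3k8 rose at 48 h (1.14). Map3k14, the NIK kinase of the alternative pathway, fell (-0.62 and -0.39). Of 23 TRAFs, adaptors and ubiquitin ligases 8 rose and 4 fell at 48 h and 8 rose and 4 fell at 72 h, with Ticam1, an adaptor of Toll-like receptors, up (0.74 and 0.81) and the conjugating enzyme gene Ube2n down at 72 h (-0.69). Of 16 genes listed as other negative regulators 8 rose and 2 fell at 48 h and 7 rose and 1 fell at 72 h. In that list the autophagy adaptor gene Sqstm1 rose (1.57 and 1.08) and Pdlim2 fell (-0.40 and -0.62). The lists give each gene 1 role, and whether it acts in that role in these cells was not tested. Of 8 other IkappaB-family and Bcl3-type regulators 1 rose and 1 fell at 48 h and 1 rose and 4 fell at 72 h, the rise at 48 h being Nfkbid (0.26). It did not pass with DESeq2 (0.27, adjusted p = 0.0613), with no filter except 1 count (0.26, adjusted p = 0.0917), or with DMSO-sEV replicates 4 and 5 alone (0.15, adjusted p = 0.423). Nor did it pass without any 1 of DMSO-sEV 48 h replicates 1 and 2 and adherent 48 h replicates 3 and 5 (0.22 to 0.26, adjusted p = 0.0581 to 0.0804).

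Of 36 transcription targets 20 rose and 9 fell at 48 h (median 0.44) and 18 rose and 11 fell at 72 h (0.37). The neutrophil chemokine gene Cxcl5 rose by 2.31 and 2.14, and the kinase gene Pim1 by 1.24 at 48 h. The gelatinase gene Mmp9 fell (-2.12 and -2.37), as did the stress gene Gadd45b at 48 h (-1.08) and the interferon regulator Irf1 at 72 h (-0.97).

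In non-adherent over adherent cells 40 rose and 30 fell of the 124 at 48 h and 17 rose and 15 fell at 72 h, with medians of 0.042 and 0.034. That is 32.3% and 24.2% at 48 h, against 25.7% and 28.4% of all genes, and 13.7% and 12.1% at 72 h, against 14.7% and 12.8%. Of the 36 targets 20 rose and 8 fell at 48 h and 7 rose and 5 fell at 72 h, with Csf3, the granulocyte growth factor gene, up (1.44 and 0.45) and Gadd45b down (-1.32 and -0.79). Tnf, the ligand that classically starts the pathway, rose at both times (0.65 and 0.64). The 72 h call was lost with limma-trend (0.61, adjusted p = 0.0597) or without any 1 of adherent 72 h replicates 4 and 5 and non-adherent 72 h replicates 3 and 4 (0.54 to 0.62, adjusted p = 0.0513 to 0.0874). Tnfsf15 fell (-0.86 and -0.98). Of 20 receptors 5 rose and 4 fell at 48 h, Il1r1 among the rises (0.56), and 0 rose and 5 fell at 72 h, with Cd40 down at both (-1.17 and -1.03). The nuclear cofactor Bcl3 rose (0.60 and 0.45), Nfkbiz rose at 48 h (0.66), and the ribonuclease gene Zc3h12a, a brake on inflammatory transcripts, rose (0.78 and 0.29). The 72 h call of Zc3h12a ended with RLE factors (0.29, adjusted p = 0.0505), no filter except 1 count (0.26, adjusted p = 0.115), limma-trend (0.29, adjusted p = 0.0556) and length and GC offsets (0.22, adjusted p = 0.142). It also ended without any 1 of DMSO-sEV 48 h replicate 3, adherent 48 h replicates 3 and 4, adherent 72 h replicates 1, 2, 3, 4 and 5, non-adherent 48 h replicates 1, 2, 3 and 5 and non-adherent 72 h replicates 1, 2 and 4 (0.24 to 0.33, adjusted p = 0.0511 to 0.142). Commd1 fell (-0.54 and -0.40). The 72 h call ended with the offsets (-0.37, adjusted p = 0.051) and without any 1 of adherent 72 h replicates 2 and 5 and non-adherent 72 h replicates 1, 3 and 4 (-0.40 to -0.36, adjusted p = 0.0631 to 0.0791). Of the genes for IkappaB kinases and their activation 2 rose and 2 fell at 48 h, and 1 rose and 1 fell at 72 h. Tank was the fall named at both times (-0.41 and -0.19). With the offsets Tank did not pass at 48 h (-0.10, adjusted p = 0.153) and turned sign at 72 h (0.014, adjusted p = 0.889). Its 72 h call ended without any 1 of adherent 72 h replicate 5 and non-adherent 72 h replicate 1 (-0.19 to -0.17, adjusted p = 0.0544 to 0.056). The count of 17 rises and 15 falls at 72 h moved to 31 and 23 with only the groups compared. The rises moved to 28 with a replicate block, 30 and 31 with DMSO-sEV replicates 1 to 3 or 4 and 5 alone, and 11 with no filter except 1 count. The share of all genes called moved too, to 45.8%, 42.3%, 44.5%, 44.6% and 12.2% in these fits in that order, against 27.5% in the fit used throughout. Rises among the 124 numbered 6 to 11 without any 1 of adherent 72 h replicates 2 and 3 and non-adherent 72 h replicates 1, 2 and 4. The share of all genes called in those fits is not set beside these counts. They are therefore not read as a result about the pathway.

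**Figure D4:**
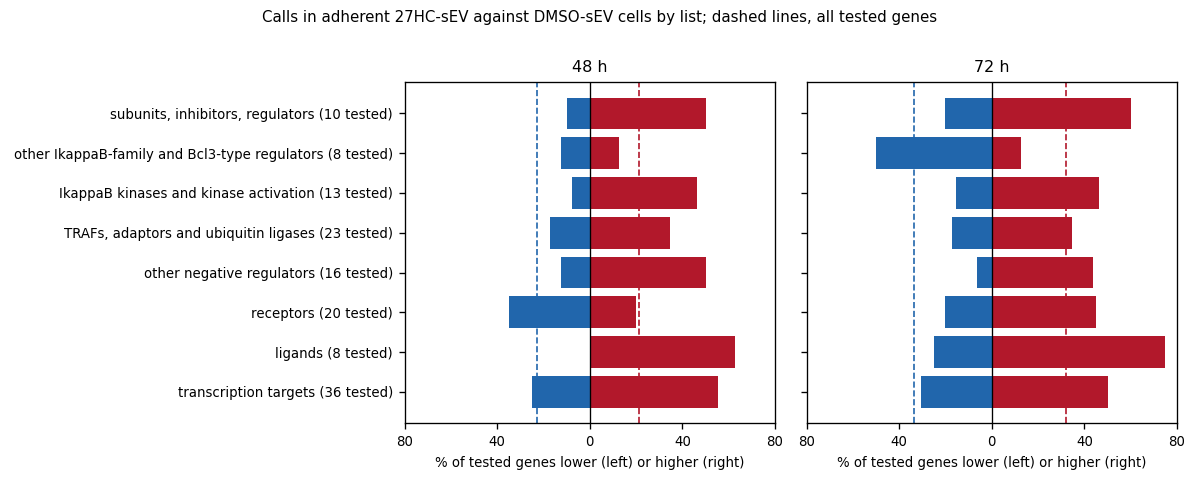
Share of the tested genes of each pathway list and of the members that were lower (bars to the left) or higher (bars to the right) in adherent 27HC-sEV over DMSO-sEV cells at an adjusted p of 0.05, at 48 h and 72 h, with dashed lines at the shares of all tested genes. The ligands, of which 8 of 16 were tested, reach furthest to the right (62.5% at 48 h and 75% at 72 h, where 25% were lower).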

How the data were processed

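Polyadenylated RNA of 4T1 cells was sequenced, per the labels' protocols, in 6 groups, of which 29 of 30 libraries were used. Per the labels, the authors dropped the 72 h non-adherent replicate 5 as an outlier. Gene-level estimated counts were deposited by the authors, and the submitters' processing notes name Salmon 1.10.0, GRCm39 and mm39. How transcripts were summed to genes and whether strand was used are not given in the sources used here. The authors also deposited TMM-normalized log2 CPM for 13087 genes, used in 1 alternative. Of the count values 40.8% were not whole, and counts were rounded.

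Of 39253 genes, 13008 passed filterByExpr in edgeR (minimum count 10, minimum total 15). All groups were fitted in 1 quasi-likelihood model (edgeR 4.0.16 in R 4.3.3, TMM factors, robust glmQLFit and two-sided glmQLFTest). P-values were adjusted over all tested genes by Benjamini-Hochberg, with a threshold of 0.05. SE was taken as |log2 fold change| over the root of F. No label ties replicates to separate cultures or vesicle preparations, so p-values reflect the spread of these libraries alone, which may be technical. Depth was 18.8 to 31.4 M, and the lowest member level was 14.1 CPM (Nfkbib).

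The members and lists were chosen with earlier results of these data known. All 10 members are given, and from each pathway list the 2 genes with the smallest p in each direction, of which the text names a part; the rest are given as counts. Likeness names the 3 genes with the highest Pearson r. Alternatives were RLE factors, DESeq2 1.42.0, limma-trend (limma 3.58.1) on the deposited values, no filter except 1 count, a replicate block, only the groups compared, DMSO-sEV replicates 1 to 3 or 4 and 5 alone, each library left out, and, added after the data were seen, a replicate block in the DMSO-sEV libraries alone and length and GC offsets. Deviations from group means correlated above 0.1 between every same-numbered pair of libraries (r = 0.118 to 0.661) in 1 of 15 pairs of groups, DMSO-sEV cells at 48 and 72 h, so numbers were taken to pair those libraries. This pairing comes from the data, not from a label, and differently numbered libraries were not compared. The offsets use the longest GENCODE M21 transcript per symbol (GRCm38, 12225 of 13008 genes) and splines fitted to 10637 genes. Steps were tested on simulated data. Promoters are RefSeq's (GRCm38.p6), a build other than the authors', and were matched by symbol for 8 of 10 members.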

Additional observations from a re-analysis of the deposited data

Results flagged for a closer look

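Within groups, 6 of 60 sets of values held a library far from the others by Dixon's criterion, which chance alone meets in about 1 in 20 sets. Rela was at 148.6 CPM in the 72 h non-adherent replicate 4, the other 3 being at 139.2 to 140.8 CPM, and Relb was at 44.1 CPM in the same library, the others being at 40.9 to 41.4 CPM. In that group Rel was at 18.4 CPM in replicate 3, the others being at 23.4 to 24.1 CPM, and Nfkbib at 20.7 CPM in replicate 1, the others being at 19.0 to 19.3 CPM. Rel was at 27.5 CPM in replicate 5 of the adherent cells at 48 h, the others being at 24.0 to 24.2 CPM. Nfkb1 was at 213.1 CPM in the 48 h non-adherent replicate 4, the others being at 220.4 to 223.1 CPM. The calls that rest on such a library are named beside each gene.

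The difference between adherent 27HC-sEV and DMSO-sEV cells itself differed between 72 and 48 h for 3 members, by edgeR's test of the 72 h minus 48 h difference. It was -0.31 (adjusted p = 0.000221) for Nfkbia, -0.30 (adjusted p = 0.00192) for Traf1 and -0.29 (adjusted p = 0.0039) for Nfkbie, where 37.3% of all genes passed the same test. With length and GC offsets that of Nfkbia was -0.13 (adjusted p = 0.299). Over time Nfkbia gave 0.0037 in adherent and 0.31 in DMSO-sEV cells on the log2 scale, Traf1 gave -0.094 and 0.20, and Nfkbie gave -0.36 and -0.069.

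Among the other pathway genes, the same difference passed for Ikbkg (0.16), Il18 (-0.86), Irf1 (-0.58), Sqstm1 (-0.49), Pim1 (-0.36), Tlr4 (-0.78), Cd40 (-1.24), Map3k8 (-0.65) and Ube2n (-0.40). It passed too for Cxcl10 (-2.43) and Ccl5 (-1.88), which are named only here. Named genes were picked by p among those called, so their passing does not measure how often the pathway passed. Of the 124 tested pathway genes 22 passed with a positive and 28 with a negative difference. These are 17.7% and 22.6%, against 15.9% and 21.4% of all genes. The 72 h minus 48 h difference of non-adherent over adherent cells passed for Csf3 (-0.98), Il1r1 (-0.44), Gadd45b (0.53) and Nfkbiz (-0.61). Of the 124 genes 4 passed with a positive and 14 with a negative value there. These are 3.23% and 11.3%, against 1.18% and 3.41% of all genes.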

How the results depend on the processing

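Of 4190 values of members over all alternatives, 4022 stayed on their side of the threshold without a reversed call (48 of them changing sign with no call in either), 63 lost the call, 97 gained one and 8 reversed. Leaving out 1 library, often one outside the comparison, gave 3190 of the 4190 values, and 3113 of these stayed. Fewer stayed with length and GC offsets, 91 of 110. With DMSO-sEV replicates 1 to 3 or 4 and 5 alone 87 and 94 of 110 stayed. Limma-trend on the deposited values kept direction and side for all 110. With length and GC offsets Nfkb2 reversed, to -0.21 in adherent over DMSO-sEV cells at 72 h, -0.16 in non-adherent over adherent cells at 48 h, -0.064 in non-adherent over DMSO-sEV cells at 48 h, -0.19 in non-adherent over DMSO-sEV cells at 72 h, 0.027 in 72 over 48 h in DMSO-sEV cells and -0.30 in the change with time of adherent over DMSO-sEV cells, and Tnfaip3 to -0.11 in non-adherent over DMSO-sEV cells at 48 h. Nfkb1 reversed with DMSO-sEV replicates 4 and 5 alone, to -0.033 in adherent over DMSO-sEV cells at 72 h. Among other pathway genes Tank reversed with the offsets, to 0.014, adjusted p = 0.889, in non-adherent over adherent cells at 72 h. The cause was not tested. Of 2245 values of the pathway genes named, 2204 kept direction and side, and 40 lost the call. Leaving out 1 library gave 1711 of these values. The genes were picked by p among those called, so kept calls follow in part from that choice. The fit with DMSO-sEV cells held to 2 or 3 replicates has fewer samples. Counts of members are given below by fit. The share of all genes called differs between fits too and is not set beside each count here. These counts therefore describe the fits and are not read as a result about the members. With DMSO-sEV replicates 1 to 3 alone the counts were 2 lower in adherent over DMSO-sEV cells at 48 h, 8 higher in non-adherent over adherent cells at 72 h, 1 lower in non-adherent over adherent cells at 72 h, 0 lower in non-adherent over DMSO-sEV cells at 48 h, 7 lower in 72 over 48 h in DMSO-sEV cells, 1 higher in 72 over 48 h in non-adherent cells, 5 for the change with time of adherent over DMSO-sEV cells and 1 for the change with time of non-adherent over adherent cells. With length and GC offsets the counts were 4 lower in adherent over DMSO-sEV cells at 72 h, 2 higher in non-adherent over adherent cells at 48 h, 2 lower in non-adherent over adherent cells at 48 h, 1 lower in non-adherent over adherent cells at 72 h, 3 lower in non-adherent over DMSO-sEV cells at 48 h, 1 higher in 72 over 48 h in DMSO-sEV cells and 1 lower in 72 over 48 h in DMSO-sEV cells. With no filter except 1 count the counts were 2 higher in non-adherent over adherent cells at 72 h and 1 lower in 72 over 48 h in adherent cells. With the replicate block the counts were 8 higher in non-adherent over adherent cells at 72 h. With only the groups compared the counts were 7 higher in non-adherent over adherent cells at 72 h, 1 lower in non-adherent over adherent cells at 72 h, 1 higher in 72 over 48 h in DMSO-sEV cells, 5 lower in 72 over 48 h in non-adherent cells and 1 for the change with time of non-adherent over adherent cells. With DMSO-sEV replicates 4 and 5 alone the counts were 8 higher in non-adherent over adherent cells at 72 h, 1 lower in non-adherent over adherent cells at 72 h, 1 lower in 72 over 48 h in DMSO-sEV cells, 5 lower in 72 over 48 h in non-adherent cells and 1 for the change with time of non-adherent over adherent cells. With the replicate block in the DMSO-sEV libraries alone the counts were 5 lower in 72 over 48 h in DMSO-sEV cells. With DESeq2 the counts were 1 higher in 72 over 48 h in non-adherent cells. Leaving out 1 library at a time, counts ran over 1 to 2 lower in adherent over DMSO-sEV cells at 48 h, 0 to 1 lower in non-adherent over adherent cells at 48 h, 3 to 7 higher in non-adherent over adherent cells at 72 h, 0 to 1 lower in non-adherent over adherent cells at 72 h, 0 to 1 lower in non-adherent over DMSO-sEV cells at 48 h, 3 to 5 lower in 72 over 48 h in DMSO-sEV cells, 1 to 4 lower in 72 over 48 h in adherent cells, 0 to 1 higher in 72 over 48 h in non-adherent cells, 3 to 5 for the change with time of adherent over DMSO-sEV cells and 0 to 1 for the change with time of non-adherent over adherent cells. Over all 15 pairs of groups, 32 of 70 correlations between same-numbered libraries exceeded 0.1, with a range of -0.409 to 0.661. The highest was between DMSO-sEV libraries at 48 and 72 h (replicate 4), the only pair of groups in which all exceeded 0.1. In other pairs of groups values reached 0.651 (replicate 2 of DMSO-sEV cells at 72 h and adherent cells at 48 h). Numbers were not taken to pair samples in those. The block over all groups changed 7 of 110 values, all gained calls. Depth of 18.8 to 31.4 M sets the counting error only.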

Other observations

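Between 72 and 48 h, of the 124 tested pathway genes 15 rose and 14 fell in non-adherent cells, 21 rose and 11 fell in adherent cells and 45 rose and 31 fell in DMSO-sEV cells, beside the shares of all genes given for those pairs of times. In non-adherent cells the falls moved to 25 with only the groups compared, 22 with DMSO-sEV replicates 1 to 3 alone and 23 with replicates 4 and 5 alone, where the rises moved to 23. In adherent cells the falls moved to 7 with no filter except 1 count. In DMSO-sEV cells 30 rose and 13 fell with replicates 4 and 5 alone. The shares of all genes called in these fits are not set beside these counts, so the moves are not read as a result about the pathway. Il1a, for interleukin-1 alpha, rose in all 3 groups (0.72, 0.68 and 0.69 on the log2 scale), as did Cxcl5 (1.03, 1.06 and 1.23). Tlr3, a receptor of double-stranded RNA, fell in all 3 (-0.58, -0.40 and -0.79). The SE of these values and their adjusted p lie within the limits given for the pathway genes.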
